A study of Mus musculus with 12 samples.

Results

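Distal intronic H3K27ac peaks of microglia were the subject of the analysis. H3K27ac is the acetylation of lysine 27 of histone H3, a mark of active promoters and enhancers. A peak was taken when it lay in an intron, more than 1000 bp from the nearest transcription start site (TSS), was under 10000 bp wide, carried no LTR repeat in its annotation and came from both the WT and the KO peak list. Of 55862 H3K27ac peaks, 25751 lay in introns, 9022 of these were in both lists, 7445 of these were distal and 7056 of these were narrow enough. Removal of 377 peaks annotated to an LTR left 6679 peaks in 3210 genes. The rule used no read count, but membership of both lists selects against peaks that differ strongly between the genotypes. In the same genomic setting, 7567 peaks were listed for WT but not KO and 7505 for KO but not WT, and these are not described here.

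Chromatin came from microglia of 2-mo-old C57BL/6J mice, sorted from whole brain as CD11b+ CD45lo cells. WT mice carried 2 intact copies of *Cx3cr1*, the receptor for the neuronal chemokine fractalkine, and KO mice carried eGFP in both copies (Cx3cr1 eGFP/eGFP), so the KO removes the gene in every cell that uses it, from development on. Each H3K27ac library was a pool of 3 mice of 1 sex, with 1 female and 1 male pool per genotype, so n = 2 pools per genotype and sex is balanced between them. By their labels, 4 libraries for Rpb2, a subunit of RNA polymerase II, had the same design. The 4 input libraries were left out.

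The H3K27ac libraries held 10395804 to 21134403 reads. In the WT male and both KO pools, 61.1% to 65.3% of reads fell in peaks, against 15.9% in the WT female pool. That library stands apart, and the class and genotype comparisons are also given without it. The Rpb2 library labelled WT female holds Y-linked reads that go against its sex label, so it is named below by its label only. Levels are given in CPM per kb, which are read counts scaled to a common TMM-adjusted total of reads in peaks and divided by the peak width in kb. Log2 fold changes are KO over WT from edgeR's quasi-likelihood test, fitted to all peaks of a table.

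Enhancers are stretches of DNA that bind transcription factors and raise the transcription of a gene at a distance, and many lie in introns of the gene they serve or of a neighbor. In microglia and other macrophages, the ETS factor PU.1 opens most of these sites together with IRF, C/EBP, AP-1, RUNX, MAF and MEF2 factors, and TGF-beta signaling through SMAD proteins maintains the microglial state. Active enhancers are flanked by acetylated nucleosomes and often load RNA polymerase II, which makes short transcripts from them.

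Sequences of 9 members are shown to let the reader see what such a region holds. They are members with a high level, members in genes of myeloid regulators and members with the lowest p in the genotype comparison, picked after their motif matches had been seen. Each is 200 bases of the plus strand of mm10, read from GRCm38.p6, centred on the strongest Rpb2 peak inside the member or, where there was none, on the member's midpoint. Capitals mark matches to 13 motifs on either strand, which are named with the motif counts. The *Kdm6b* window at chr11:69410260-69410459, the *Il17ra* window at chr6:120479724-120479923 and the *Tnrc6c* window at chr11:117655972-117656171 held no match. The *Nmt1* window at chr11:103051422-103051621, the *Runx1* window at chr16:92675808-92676007 and the *Tfeb* window at chr17:47768640-47768839 each held an AP-1 match. The *Nfia* window at chr4:97751877-97752076 held a GC-box and the *Tgfbr2* window at chr9:116145368-116145567 an ETS-IRF match and an E-box. The *Marveld2* window at chr13:100600477-100600676 held PU.1, AP-1 and RUNX matches, and it overlaps a coding exon. The other 8 windows lie in introns only.
Kdm6b: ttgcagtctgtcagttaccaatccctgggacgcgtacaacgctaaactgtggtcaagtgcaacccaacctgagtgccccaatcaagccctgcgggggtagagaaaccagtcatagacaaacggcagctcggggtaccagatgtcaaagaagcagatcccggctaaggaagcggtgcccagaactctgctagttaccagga
Nmt1: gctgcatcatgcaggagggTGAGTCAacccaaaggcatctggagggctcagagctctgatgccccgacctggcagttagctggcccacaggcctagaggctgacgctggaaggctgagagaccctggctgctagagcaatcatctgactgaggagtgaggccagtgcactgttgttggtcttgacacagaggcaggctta
Runx1: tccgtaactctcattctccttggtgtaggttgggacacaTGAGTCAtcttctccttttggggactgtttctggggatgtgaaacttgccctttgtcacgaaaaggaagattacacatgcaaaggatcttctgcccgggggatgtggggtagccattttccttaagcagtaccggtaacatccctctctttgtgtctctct
Tfeb: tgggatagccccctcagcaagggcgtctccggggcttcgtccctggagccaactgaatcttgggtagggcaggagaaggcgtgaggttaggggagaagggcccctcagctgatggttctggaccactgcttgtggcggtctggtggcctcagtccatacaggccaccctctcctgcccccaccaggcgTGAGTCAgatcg
Nfia: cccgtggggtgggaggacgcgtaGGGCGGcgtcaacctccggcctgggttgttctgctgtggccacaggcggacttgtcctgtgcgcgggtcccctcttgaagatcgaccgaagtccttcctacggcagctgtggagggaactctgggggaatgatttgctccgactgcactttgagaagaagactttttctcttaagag
Tgfbr2: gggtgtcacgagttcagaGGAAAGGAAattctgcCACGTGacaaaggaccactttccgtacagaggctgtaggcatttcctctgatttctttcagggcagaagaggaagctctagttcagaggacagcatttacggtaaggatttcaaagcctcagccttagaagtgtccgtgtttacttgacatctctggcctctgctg
Marveld2: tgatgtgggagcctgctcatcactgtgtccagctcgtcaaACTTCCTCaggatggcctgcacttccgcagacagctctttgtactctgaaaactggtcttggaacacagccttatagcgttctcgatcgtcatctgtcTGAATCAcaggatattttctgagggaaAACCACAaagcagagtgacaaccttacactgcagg
Il17ra: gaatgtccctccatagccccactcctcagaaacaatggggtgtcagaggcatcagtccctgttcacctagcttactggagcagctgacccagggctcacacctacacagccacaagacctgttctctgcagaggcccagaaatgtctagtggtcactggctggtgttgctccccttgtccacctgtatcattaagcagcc
Tnrc6c: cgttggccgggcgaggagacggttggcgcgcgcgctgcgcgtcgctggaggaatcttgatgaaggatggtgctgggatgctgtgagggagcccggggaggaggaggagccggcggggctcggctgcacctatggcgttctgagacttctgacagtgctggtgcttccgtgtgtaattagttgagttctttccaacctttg

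Members were spread along their genes. Their median width was 2312 bp, with a range of 503 to 9935 bp, and the median distance of the midpoint to the nearest TSS was 18411 bp. The first intron held 2542 members (38.1%) and later introns held 4137. A distance of over 1000 to 5000 bp was found for 1183 members, one of over 5000 to 20000 bp for 2335, one of over 20000 to 100000 bp for 2633 and a larger one for 528. The nearest TSS was that of the host gene for 4877 members and that of another gene for 1802. A single member was found in 1849 genes (57.6%), and 48 genes held 10 or more. Members took 21.9% of the reads in peaks in the WT female pool and 24.8% to 25.6% in the other 3 libraries.

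The word distal needs a limit, because the distance is measured from the peak midpoint. Within 849 members (12.7%), the GENCODE vM21 annotation places at least 1 transcript start, of the host or nearest gene in 645 members and of small RNA genes alone in 37. Members with a start inside had a median width of 5247 bp, against 2118 bp for the 5830 members without one. Their median H3K27ac level was also higher, at 12.5, 14.3, 15.1 and 14.8 CPM per kb in the WT female, WT male, KO female and KO male pools, against 7.97, 8.66, 7.71 and 7.89 CPM per kb. The annotation goes against the name distal intronic enhancer for the 849 members with a start inside. For the other 5830 it places no start inside, which does not show that a peak is an enhancer or lies in introns alone.

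The labelled cell type was checked with gene lists. Transcript starts of all 29 homeostatic microglia genes, among them *Cx3cr1*, *P2ry12* and *Tmem119*, lay in H3K27ac peaks of both lists, with a median level of 20.0 to 29.2 CPM per kb over the libraries. Of the markers of other cells, this held for 1 of 22 neuron genes (*Rbfox1*), 1 of 15 astrocyte genes (*Slc1a3*), 3 of 17 oligodendrocyte lineage genes (*Cnp*, *Mbp* and *Mog*), 2 of 15 endothelial and mural genes, 1 of 18 lymphocyte genes and 2 of 16 genes of monocytes, neutrophils and border macrophages. The summed level of these starts was 11230 to 16164 CPM for the homeostatic list and at most 258.8 CPM for any of the other 6 lists. These sums run over unequal numbers of starts. The median level over the libraries was 2.78 to 25.4 CPM per kb for the lymphocyte list (1 start). For the remaining lists of other cells it was 6.53 to 16.0.

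The 10 strongest members had mean levels of 35.3 to 54.9 CPM per kb. *Kdm6b*, which encodes a demethylase of H3K27, held the member with the highest mean level, at chr11:69407866-69413072 in intron 1 of 22. Its level was 47.7 CPM per kb in the WT female pool, 64.7 in the WT male, then 59.5 and 47.7 in the female and male KO pools. The genotypes overlapped, and KO over WT came to -0.07 ± 0.33 on the log2 scale (SE; edgeR, adjusted p = 1). *Nmt1*, which encodes an N-myristoyltransferase, followed with 31.4 CPM per kb in the WT female, 62.4 in the WT male, then 40.0 and 42.3 in the female and male KO pools (chr11:103049320-103055068, intron 3 of 11). The WT pools of this member differed from each other by more than the genotypes did. *Tmem104* held 26.8, 49.2, 48.6 and 45.0 CPM per kb in the same order of libraries, with the WT female pool alone at the low end.

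The next members were close in level. *Coro1a*, which encodes the actin-binding coronin of leukocytes, had 31.9 CPM per kb in the WT female, 37.4 in the WT male, then 39.0 and 41.3 in the female and male KO pools. A member in intron 32 of *Med12l*, whose nearest TSS is that of the purinergic receptor gene *P2ry12*, a defining marker of resting microglia, had 23.6, 43.4, 41.7 and 38.9 CPM per kb. *Akna*, *Mfng*, *Ucp2*, *Dip2b* and *Cotl1* made up the other 5 of the 10 strongest, with means of 35.3 to 36.7 CPM per kb. In 9 of the 10, all but *Kdm6b*, the WT female pool was the lowest library. Transcript starts lay inside 7 of the 10, all but *Kdm6b*, *Nmt1* and *Cotl1*. The plot of the strongest members shows the 4 libraries side by side.

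**Figure D1:**
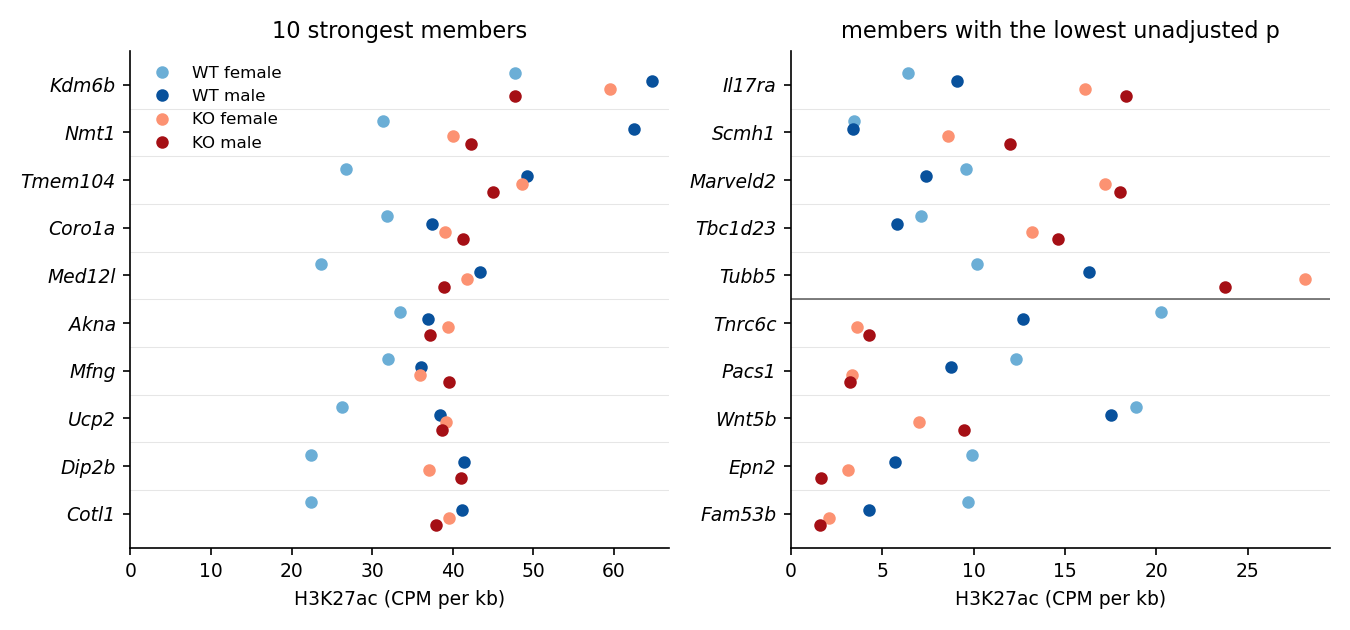
H3K27ac level (CPM per kb) in each of the 4 libraries, for the 10 members with the highest mean (left) and for the 10 members with the lowest unadjusted p between genotypes (right, 5 higher in KO above the line and 5 lower in KO below it). Each point is 1 pool. On the left the WT female pool is the lowest library at every member but *Kdm6b*, and on the right the KO and WT pools lie apart at all 10, which is how these members were picked.

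Members in genes of the microglial program covered the lists unevenly. Of 29 homeostatic microglia genes, 10 held 34 members. Their medians were 9.36, 10.4, 8.47 and 8.64 CPM per kb in the WT female, WT male, KO female and KO male pools. Over all members they were 8.40, 9.20, 8.35 and 8.43. Members named by level for a list are its strongest and stand above its median. The strongest homeostatic member was in *Trem2*, a receptor for lipids and apoptotic cells. It had 27.7 CPM per kb in the WT female, 36.8 in the WT male, then 35.4 and 39.2 in the female and male KO pools. Its midpoint is only 1050 bp from the TSS, and a start lies inside. Most of the members named next by list hold a transcript start of the host or nearest gene as well: those in *Lpcat2*, *Aif1*, *Stat3*, *Tgfb1*, *Smad7*, *Rasa3*, *Coro1a*, *Fgd2*, *Ctsz*, *Cd68*, *Lrp1* and *Abcg1* do, and those in *Runx1*, *Nfia*, *Tgfbr2*, *Nfatc1* and *Tfeb* do not. The next homeostatic ones were in *Lpcat2*, which encodes an enzyme of platelet-activating factor synthesis, with a mean of 31.7 CPM per kb, and in *Aif1*, which encodes the microglial marker Iba1, with a mean of 27.9 CPM per kb. *Mertk*, a receptor for phagocytosis, held 10 members and *Entpd1*, which encodes the ectonucleotidase CD39, held 9.

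Of 41 myeloid and microglial transcription factors, 26 held 111 members. The *Runx1* member at chr16:92674314-92677502, 21421 bp from the TSS in intron 4 of 6, was even across libraries, with 29.7 CPM per kb in the WT female, 29.2 in the WT male, then 29.2 and 29.9 in the female and male KO pools. KO over WT came to 0.01 ± 0.29 on the log2 scale (SE; edgeR, adjusted p = 1). *Nfia* followed with a mean of 25.1 CPM per kb and *Stat3*, the transducer of cytokine signals, with 22.1 CPM per kb. *Etv6*, an ETS repressor, held 16 members, *Rxra* 11, *Foxp1* 7, *Mef2c* 6 and *Zeb2* 5.

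The pathway of TGF-beta had 42 members in 14 of 34 listed gene names, 33 of which were in the annotation. By role, the ligand gene *Tgfb1* held a member with a mean of 29.4 CPM per kb, the receptor gene *Tgfbr2* one with 21.1, and the inhibitor gene *Smad7* one with 21.6. The *Tgfbr2* member was 30149 bp from the TSS in intron 1 of 6 and had 17.9 CPM per kb in the WT female, 22.6 in the WT male, then 21.5 and 22.2 in the female and male KO pools. *Smad3*, the signal transducer, held 9 members, and *Ski*, a co-repressor of SMAD proteins, held 6.

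Genes of immune receptor signaling held 127 members, in 32 of 40 genes, and genes of motility and phagocytosis held 151, in 35 of 47. *Dock4* (16 members), *Vav2* (15) and *Elmo1* (14), which act on small GTPases of the cytoskeleton, had the most members in the motility list, and *Lyn* and *Prkcb*, kinases of receptor signaling, had 10 each. The strongest members were in *Rasa3* (mean of 30.3 CPM per kb) and *Nfatc1* (25.5) for signaling, and in *Coro1a* (37.4) and *Fgd2* (33.2) for motility. Disease-associated microglia genes held 18 members in 9 of 31 genes, led beside *Trem2* by the cathepsin gene *Ctsz* (34.3 CPM per kb) and *Cd68* (30.5). Lipid and lysosome genes held 38 members in 15 of 33 genes, led by *Tfeb*, the master factor of lysosome genes (29.4 CPM per kb), the receptor gene *Lrp1* (23.5) and the cholesterol exporter gene *Abcg1* (23.2).

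Lists of other cell types held fewer members, but they are also shorter. They were 12 in 4 of 22 neuron genes, 6 in 4 of 15 astrocyte genes and 7 in 3 of 15 endothelial and mural genes. Of 17 oligodendrocyte lineage genes, *Mbp* held 4. Lymphocyte genes held 2 in 2 of 18, and genes of monocytes, neutrophils and border macrophages 5 in 4 of 16. The shares of genes with a member in the astrocyte and monocyte lists were near that of the disease-associated list (9 of 31). The strongest members in the lists of other cells were in *Mbp* (mean of 15.9 CPM per kb), *Pecam1* (14.4) and *Rbfox1* (13.3). Medians of these lists ran from 3.97 to 12.2 CPM per kb over lists and libraries. For the lists of microglial and myeloid genes above, they ran from 7.37 to 12.4. An intron can hold an enhancer of a neighboring gene, and the *Dlgap1* member, for example, has its nearest TSS at *Tgif1*.

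Members had a lower median level than promoter peaks in all 4 libraries. The median level of members was 8.40 CPM per kb in the WT female, 9.20 in the WT male, then 8.35 and 8.43 in the female and male KO pools. Promoter peaks of both lists, which lie within 1000 bp of a TSS and obey the same width and repeat limits (n = 7629), had medians of 13.3, 11.7, 13.1 and 12.6 CPM per kb. The within-library difference of median log2 levels was -0.51 ± 0.13 (SD, n = 4 libraries), lower in 4 of 4 (exact sign-flip permutation test, two-sided p = 0.13, the smallest that 4 libraries allow). Without the WT female pool, the difference was -0.48. Intergenic peaks of both lists (n = 4491) had medians of 8.36, 10.2, 8.82 and 9.27 CPM per kb. Members were lower than these by a log2 difference of -0.08 ± 0.06 (SD, n = 4), in 3 of 4 libraries (exact sign-flip permutation test, two-sided p = 0.25). This difference was -0.11 without the WT female pool, -0.16 without members that hold a transcript start and -0.13 for members over 3000 bp from a TSS. Neither test can pass 0.05 with 4 libraries.

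**Figure D2:**
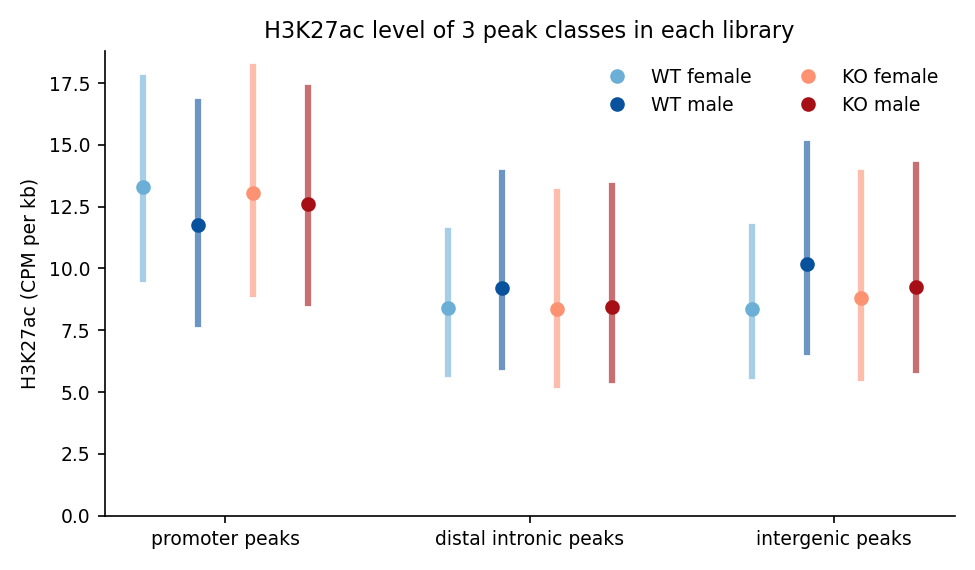
H3K27ac level (CPM per kb) of promoter, distal intronic and intergenic peaks in each of the 4 libraries. Points are medians over peaks and bars run from the lower to the upper quartile. Medians of distal intronic peaks lie between 8.35 and 9.20 CPM per kb, below every promoter median and close to the intergenic ones.

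Sequence at the member midpoints was searched for 13 motifs, in windows of 500 bases and on both strands. The PU.1 motif was GAGGAAGT, ETS was CCGGAAGT, ETS-IRF was GGAANNGAA, AP-1 was TGANTCA, CEBP was TTGCNNAA, RUNX was TGTGGTT, MAF was TGCTGAC, SMAD was GTCTAGAC, E-box was CACGTG and GC-box was GGGCGG. MEF2, CTCF and NF-kB were searched by degenerate forms of their consensus. The PU.1 motif was present in 720 of 6679 windows (10.8%, 95% Wilson interval 10.1 to 11.6%), against 251 of 9467 windows (2.65%, interval 2.35 to 2.995%) that lay 5000 bases outside the members and overlapped no H3K27ac peak. The share in members was 4.07 times that in the flanks. Mean GC content was close, at 47.4% in members and 45.1% in flanks. Promoter windows held the motif in 4.46% and intergenic windows in 10.9%. Along the members, 2.88% held a PU.1 match in the 100 bases before the midpoint, and 0.64% did in the outermost bin before it.

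Other motifs differed less from the flanks. ETS-IRF was in 19.8% of members and 15.4% of flanks, MAF in 10.5% and 7.84%, CEBP in 20.2% and 18.1%, and AP-1 in 15.1% and 14.1%. RUNX was in 13.4% and 13.3%, and MEF2 in 7.83% and 8.67%, so that these shares were close to or below those of the flanks. GC-boxes were in 11.2% of members and 6.52% of flanks, but in 70.7% of promoters. The ETS form of promoters was in 0.97% of members and 0.37% of flanks (2.63 times), against 9.61% of promoters. CTCF matches were rare in both, at 0.72% of members and 0.32% of flanks (2.27 times). SMAD was in 0.63% of members and 0.38% of flanks, E-box in 8.0% and 6.9%, and NF-kB in 5.93% and 4.45%. Motifs can share bases, and a PU.1 and an ETS-IRF match did so in 28 windows and an AP-1 and a MAF match in 21. Members with a PU.1 match had median levels of 8.67 to 9.48 CPM per kb over the 4 libraries, against 8.31 to 9.16 for those without one. A match describes letters and does not show that a factor was bound.

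**Figure D3:**
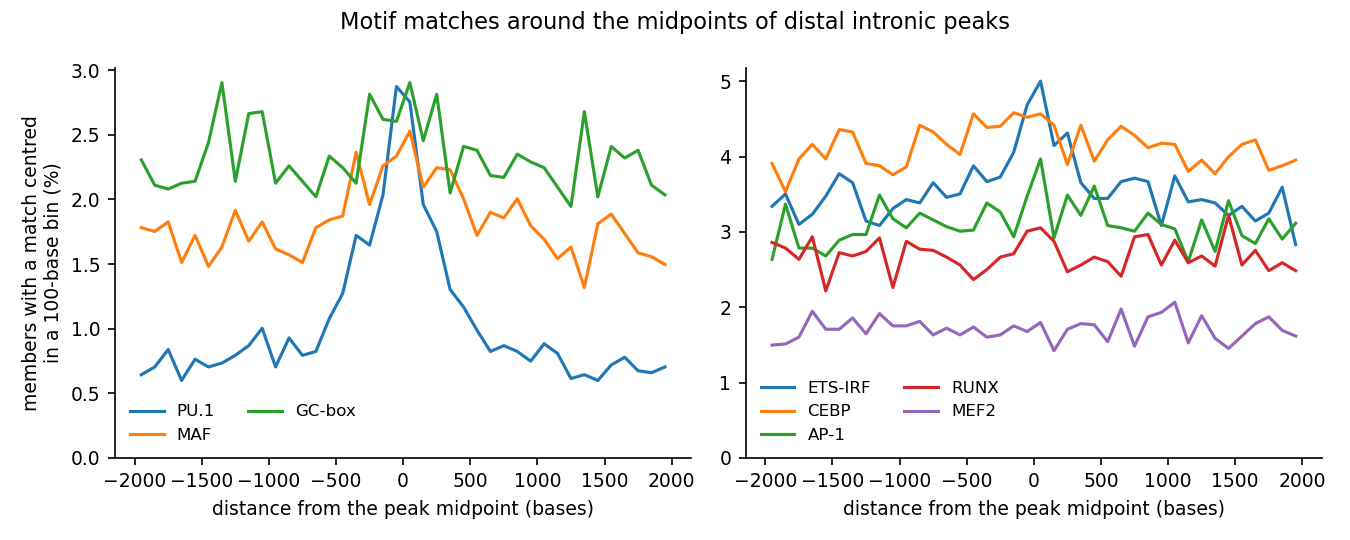
Share of the 6679 members with a motif match centred in each 100-base bin (percent), against the distance of the bin from the peak midpoint in bases. PU.1 reaches 2.88% in the bin before the midpoint against 0.64% in the outermost bin, and MEF2 stays between 1.42% and 2.07%.

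RNA polymerase II was found at a part of the members. An Rpb2 peak had its midpoint inside 2344 of 6679 members (35.1%), inside 1610 of 4491 intergenic peaks (35.9%) and inside 6438 of 7629 promoter peaks (84.4%). Members with an Rpb2 peak were wider, with a median of 4103 bp against 1811 bp, and stronger in H3K27ac, with medians of 11.3, 14.1, 14.2 and 14.0 CPM per kb in the WT female, WT male, KO female and KO male pools, against 7.11, 7.61, 6.46 and 6.75 CPM per kb. A wider peak has more room for an Rpb2 peak, and the part of width in this difference was not tested. Over these 2344 members, the mean level of H3K27ac and that of the strongest Rpb2 peak inside had a Spearman rho of 0.59, given as a description across regions of the same libraries.

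The share differed with the transcript starts inside. Of the 645 members with a start of the host or nearest gene, 90.9% held an Rpb2 peak, and of the 5830 members with no start 28.3% did. The 5 highest Rpb2 levels show what such members are. In 3 of them, in introns of *Tex14*, a gene of germ cells, the member holds genes of small nuclear or nucleolar RNAs (*Rnu1a1*, *Gm22068*, and *Rnu3b1* with *Gm23137*). The Rpb2 peak at *Rnu1a1*, which encodes the U1 RNA of the spliceosome, had 640 CPM in the library labelled WT female, 526 in the WT male, then 553 and 522 in the female and male KO pools. *Sgk1*, which encodes a kinase induced by glucocorticoids, and *Arrdc3* held the other 2, with starts of their own inside. Small RNA genes of such families have near-identical copies, and only uniquely mapped reads were kept, so these levels are uncertain.

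Among members without a start, the highest Rpb2 levels were in *Rad51b*, *Maml3*, *Kdm6b*, *Batf* and *Nfia*. The peak in *Rad51b*, a gene of DNA repair, had 257 CPM in the library labelled WT female, 321 in the WT male, then 311 and 311 in the female and male KO pools. The peak in *Maml3*, which encodes a co-activator of Notch, had 216, 187, 215 and 228 CPM in the same order. The genotypes overlapped at both. The peak in *Batf*, which encodes an AP-1 factor, had 141, 227, 180 and 189 CPM.

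Rpb2 peaks inside members had lower median levels than those inside the other classes in all 4 libraries. Their median level was 86.9 CPM per kb in the library labelled WT female, 85.2 in the WT male, then 83.8 and 86.8 in the female and male KO pools (3683 peaks). Inside promoter peaks, the medians were 162, 165, 147 and 143 CPM per kb (8532 peaks), a within-library log2 difference of -0.84 ± 0.10 (SD, n = 4; exact sign-flip permutation test, two-sided p = 0.13). Inside intergenic peaks, they were 100 to 104 CPM per kb, a difference of -0.25 ± 0.02 (SD, n = 4; exact sign-flip permutation test, two-sided p = 0.13). Both differences had the same sign in 4 of 4 libraries. Motif windows of the 2344 members with an Rpb2 peak were also centred on that peak instead of the midpoint. There, 14.1% held PU.1, 29.3% a GC-box and 12.9% MAF, against 9.51%, 14.9% and 10.3% at the midpoints. AP-1 was nearly unchanged (13.74% against 13.69%). CEBP (17.96% against 20.26%), RUNX (10.75% against 12.24%) and MEF2 (5.503% against 8.063%) were lower. The other motifs were higher. Mean GC content was 52.95%, against 48.46% at the midpoints, and 693 of these members hold a transcript start. The part of either in the GC-box share was not tested.

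**Figure D4:**
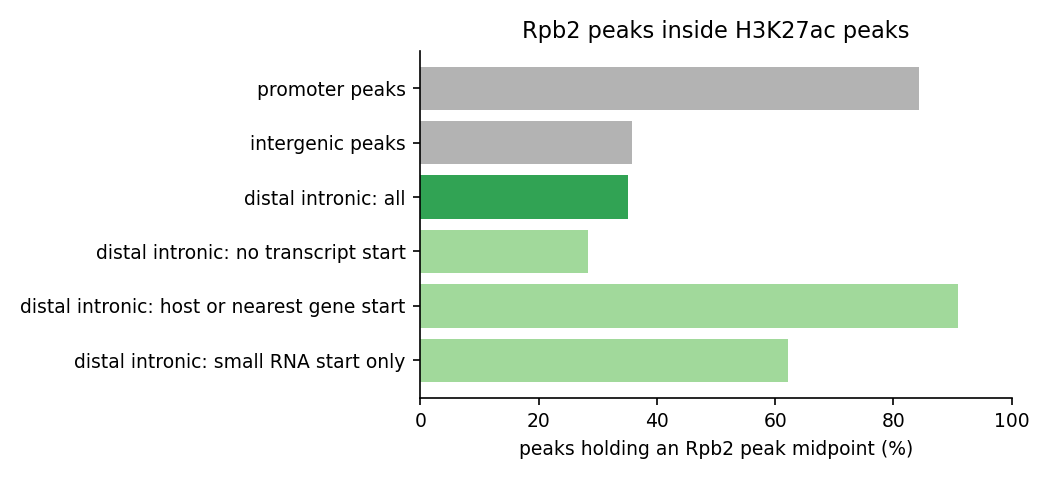
Share of H3K27ac peaks that hold the midpoint of an Rpb2 peak (percent), for promoter and intergenic peaks, for all distal intronic peaks and for those grouped by the transcript starts inside them. The share is 35.1% for all 6679 distal intronic peaks, 28.3% for those with no start inside and 90.9% for those with a start of the host or nearest gene.

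The comparison of KO with WT asked whether loss of *Cx3cr1* alters the acetylation of these regions. No member passed an adjusted p of 0.05 (0 of 6679, edgeR), against 13 of 55798 peaks of the whole table (0.0233%), and the lowest adjusted p of a member was 0.383. DESeq2 called 16 members (0.24%), 8 in each direction, against 0.43% of all peaks. At an unadjusted p under 0.05, 179 members (2.68%) were higher in KO, where the share over all peaks was 1.35%, and 113 (1.69%) were lower, where it was 3.6%. This split turned with the scaling, to 157 higher and 146 lower with total reads in peaks, 135 and 165 with DESeq2 size factors, 123 and 187 with loess offsets, and 2 and 0 with total reads of the library. Both KO pools lay above both WT pools at 1235 members (18.5%; all peaks, 14.3%) and below them at 950 (14.2%; all peaks, 13%). Among promoter peaks of both lists, 2.4% were higher and 1.35% lower in KO at an unadjusted p under 0.05. Among intergenic peaks of both lists, 3.47% were higher and 2% lower. Both KO pools lay above both WT pools at 20% of promoter and 17.2% of intergenic peaks, and below at 12.3% and 13.4%. The median log2 fold change of members was 0.03, with a 10th to 90th percentile range of -0.79 to 0.49 and a median SE of 0.40. Over all peaks the median was -0.21, but most peaks are of 1 list only. In a fit of the peaks of both lists, it was -0.023 for members and -0.0089 for all, and with loess offsets on the whole table -0.065 and -0.085.

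The count depends on the WT pools. Without the WT female pool, edgeR called 84 members (1.26%; all peaks, 0.907%), 42 higher and 42 lower in KO. Without the WT male pool it called 905 (13.5%; all peaks, 14.6%), of which 814 were higher. Each of these fits takes the lone WT pool to vary like the KO pools. The median log2 level of members was 3.29 ± 0.08 in WT and 3.23 ± 0.01 in KO (SD, n = 2 each), a difference of -0.06 (exact permutation test, two-sided p = 0.667, where the smallest possible is 0.33). Without the WT female pool the difference was -0.12, and without the WT male pool it was -0.001.

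The female and male pools had medians of opposite sign. The median log2 ratio of KO over WT at members was 0.18 between the female pools and -0.068 between the male pools. The ratio had the same sign in both sexes at 47.6% of members. Intergenic peaks had medians of 0.23 and -0.096, with the same sign at 46.5%. Promoter peaks had medians of 0.009 and 0.091, with the same sign at 49.0%. At members, the ratio also changed with level. Members were cut into 4 groups of equal size by level. In the lowest group (1.73 to 5.94 CPM per kb), the median log2 ratio was -0.12 in females and -0.25 in males. In the highest group (12.5 to 54.9 CPM per kb), it was 0.39 in females and -0.04 in males. The WT female pool with its low share of reads in peaks enters the female ratio, and its part in this trend was not tested.

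**Figure D5:**
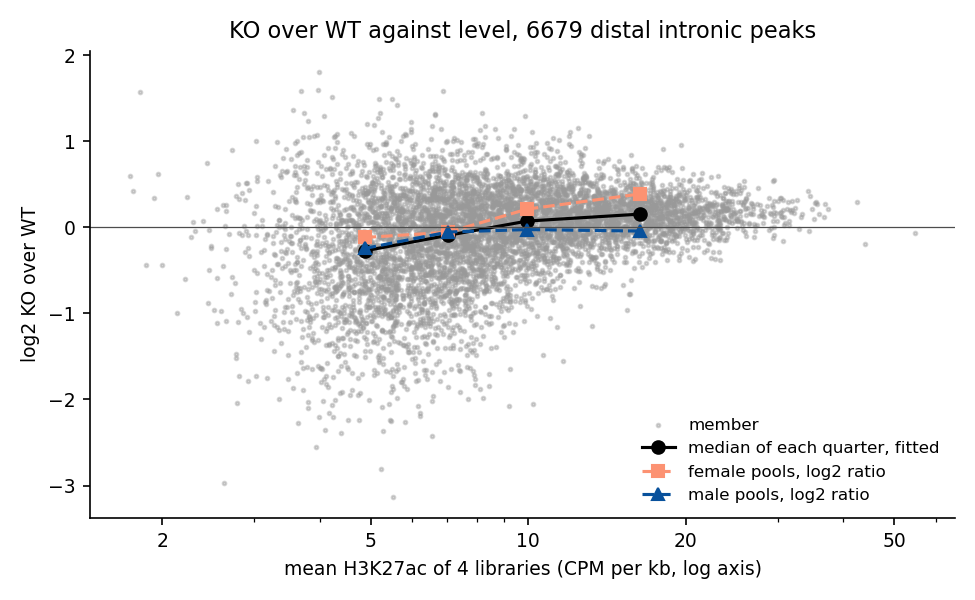
Log2 fold change of KO over WT against the mean H3K27ac level (CPM per kb, log axis) of the 6679 members (gray points, fitted by edgeR). Black points are the median fold change of each of 4 level groups, and squares and triangles are the median log2 ratios of the female and the male pools. The female median runs from -0.12 to 0.39 over the groups and the male median from -0.25 to -0.03 and -0.04.

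The 10 members with the lowest unadjusted p in the edgeR fit, 5 in each direction, did not pass its adjusted threshold, while DESeq2 passed 7 of them, all but *Tubb5*, *Epn2* and *Fam53b*. They were picked for this separation, so their values are a description. The *Il17ra* member, in intron 11 of 12 of the interleukin-17 receptor gene, with its nearest TSS at *Tmem121b* (chr6:120477725-120481923), had 6.39 CPM per kb in the WT female, 9.06 in the WT male, then 16.1 and 18.3 in the female and male KO pools. KO over WT came to 1.15 ± 0.30 on the log2 scale (SE; edgeR, adjusted p = 0.383), and the KO pools were above the WT pools in both sexes. The *Tubb5* member, at a tubulin gene, had 10.2, 16.3, 28.2 and 23.7 CPM per kb in the same order, but it lies 1006 bp from the TSS and holds a transcript start. *Scmh1*, which encodes a Polycomb protein, had 3.46, 3.42, 8.57 and 12.0 CPM per kb. *Marveld2*, a gene of tight junctions, had 9.59, 7.39, 17.2 and 18.01 CPM per kb. *Tbc1d23* was the fifth of those with higher values in KO, at 1.11 ± 0.34 on the log2 scale (SE; edgeR, adjusted p = 0.698).

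On the lower side, the *Tnrc6c* member (chr11:117655507-117656637, intron 1 of 21), in a gene of microRNA silencing, had 20.2 CPM per kb in the WT female, 12.7 in the WT male, then 3.63 and 4.26 in the female and male KO pools. These stand for 81, 90, 54 and 60 reads. KO over WT came to -2.05 ± 0.54 on the log2 scale (SE; edgeR, adjusted p = 0.42). *Wnt5b*, which encodes a Wnt ligand, had 18.9, 17.5, 7.0 and 9.45 CPM per kb in the same order. *Pacs1*, *Epn2* and *Fam53b* had means of 4.41 to 6.91 CPM per kb and log2 fold changes of -1.69, -1.71 and -1.91. In all 5 the female and the male pools both had lower values in KO, and the WT female pool was the highest library. Without the WT female pool, the value of *Fam53b* was -1.22 and that of *Tubb5* 0.66, and edgeR then called 4 of the 10 (*Il17ra*, *Scmh1*, *Marveld2* and *Tbc1d23*). Without the WT male pool, it called all 10. Scaling by total reads of the library kept the signs, with -0.43 for *Wnt5b*, -0.77 for *Epn2*, -0.85 for *Pacs1*, -0.87 for *Fam53b* and -1.17 for *Tnrc6c*, and 1.49 to 2.28 for the 5 higher ones.

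By gene list, no list held a member past the adjusted threshold of edgeR. At an unadjusted p under 0.05, the counts higher and lower in KO were 0 and 0 of 34 for homeostatic genes, 2 and 1 of 111 for transcription factors, 0 and 2 of 42 for TGF-beta genes, 2 and 3 of 127 for immune receptor signaling, 3 and 4 of 151 for motility and phagocytosis, 1 and 0 of 18 for disease-associated genes and 1 and 0 of 38 for lipid and lysosome genes. Over all peaks, 1.35% were higher and 3.6% lower at this threshold, and over all members 2.68% and 1.69%. Counts this small say little of any list. The median log2 fold changes of these 7 lists ran from 0.04 to 0.13, beside 0.03 for all members. The 6 lists of other cell types had no member with an unadjusted p under 0.05, and with 2 to 12 members each their medians ran from -0.26 for astrocyte to 0.43 for lymphocyte markers.

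At the Rpb2 peaks inside members, no peak passed the adjusted threshold either (0 of 3683, edgeR), against 2 of 26706 Rpb2 peaks of the table (0.00749%). DESeq2 called 128 (3.48%; all Rpb2 peaks, 3.83%). At an unadjusted p under 0.05, 211 (5.73%) were higher in KO, where the share of all Rpb2 peaks was 6.12%, and 175 (4.75%) were lower, where it was 6.06%. Scaling by total reads of the library made these 400 higher and 55 lower, and loess offsets 102 higher and 194 lower. Both KO pools were above both WT pools at 916 (24.9%; all, 25.7%) and below at 704 (19.1%; all, 21.7%). The median log2 fold change was 0.05. Without the library labelled WT female, edgeR called 287 of these peaks (7.79%; all, 8.28%), and without the WT male it called 234 (6.35%; all, 7.35%). Over the 2344 members with an Rpb2 peak, the fold changes of H3K27ac and Rpb2 had a Spearman rho of 0.01, given as a description.

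Some Rpb2 peaks inside members were seen in 1 genotype alone. A peak in *Picalm*, a gene of clathrin endocytosis, had 0 reads in both WT libraries, 110 and 41 in the female and male KO pools. At an intron of *Chsy1*, one peak had 0, 0, 107 and 39 reads and another 0, 0, 65 and 51 in the same order, and a peak in *Zfp839* had 15, 25, 0 and 0. A count of 0 allows up to 3 reads, and the KO female library was the deepest, with 44332626 reads. These peaks passed the filter of 4 reads on average only through the genotype that has reads, so their p-values are not given. The H3K27ac members around them had log2 fold changes of 0.13 for *Picalm*, 0.40 and 0.60 for *Chsy1* and -0.16 for *Zfp839*.

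A few genes held many members. *Dip2b*, *Hivep3*, *Maml3* and *Snx29* held 17 each, and *Dock4*, *Etv6* and *Ldlrad4* tied at 16, of which *Dock4* is described. The 17 members of *Hivep3*, which encodes a zinc finger protein, reach from 2.45 to 21.7 CPM per kb, and their summed level was 569 CPM in the WT female, 815 in the WT male, then 761 and 791 in the female and male KO pools. Their log2 fold changes ran from -0.88 to 0.65, and none had an unadjusted p under 0.05. The 16 members of *Dock4* had fold changes from -1.24 to 1.08 on the log2 scale. Of these, 2 had an unadjusted p under 0.05, and none passed the adjusted threshold of edgeR. Over all members, 2.68% were higher and 1.69% lower in KO at that unadjusted threshold.

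Around the *Cx3cr1* locus, which differs between the genotypes, 8 members lay within 1 Mb. They were in *Vill*, *Plcd1*, *Oxsr1*, *Acvr2b* (2 members), *Exog*, *Csrnp1* and *Slc25a38*. The *Plcd1* member was the strongest, with 19.3 CPM per kb in the WT female, 18.1 in the WT male, then 23.7 and 23.1 in the female and male KO pools. The KO pools were above the WT pools there, and KO over WT came to 0.33 ± 0.30 on the log2 scale (SE; edgeR, adjusted p = 0.867). Over the 8, log2 fold changes ran from -0.53 to 0.42, and the lowest unadjusted p was 0.164 for *Csrnp1*.

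At the limits of the rule, the nearest peaks on each side were as follows. Just inside the distance limit lay members in *Bcor* (1004 bp, mean of 10.3 CPM per kb) and *Tubb5* (1006 bp, 19.6), and just outside it peaks in *Tmcc3* (1000 bp, 5.43) and *Kctd2* (999 bp, 8.03). Just under the width limit lay *Fcho2* (9935 bp, 9.92 CPM per kb) and *Slc25a45* (9931 bp, 21.7), and just over it *Rcbtb2* (10030 bp, 14.3) and *Pld1* (10033 bp, 18.01).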

How the data were processed

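ChIP-seq of H3K27ac and Rpb2 was analysed in 8 libraries of microglia, 2 pools per genotype and mark. The authors aligned the single-end reads with Bowtie 2 to mm10 and retained unique alignments. Peaks from HOMER that were reproducible between pools were merged across genotypes, and the deposited values are unnormalized counts of reads in each merged peak.

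Peaks averaging 4 or more reads in either genotype entered the quasi-likelihood test of edgeR 4.0.16 under R 4.3.3 (TMM factors, Benjamini-Hochberg adjustment over the whole table), with genotype as the only term. This passed all 6679 members. Levels are CPM of effective library sizes per kb, compared on log2(value + 1), and log2 ratios of single pools used a pseudocount of 0.5 CPM. The exact permutation test of KO against WT used SciPy 1.17.1 in Python 3.11.15. Sign flips of the other exact tests were enumerated in full with NumPy 2.4.6. Host genes were matched by RefSeq accession, for 6667 members, and 28 members with a microRNA accession took the gene of the nearest TSS. Windows were read from GRCm38.p6, where 55844 of 55844 peaks on its chromosomes lay within the chromosome lengths, and transcript starts from GENCODE vM21. Nothing in the labels says that pools of 1 sex share a litter or batch, so labelled sex was used as a block only as an alternative. Motif shares have Wilson intervals of 95%, which cover counting error only. The p-values refer to pools of 3 mice. Those of edgeR, and its SE, use a spread partly shared over all peaks of a fit, not that of 1 member alone. The common squared coefficient of variation was 1.28 over all H3K27ac peaks and 0.109 in the fit of peaks of both lists.

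Members and gene lists were chosen with earlier results of these data known. Members were named by rule: the 10 with the highest mean level, the 3 strongest of each of 13 gene lists, the 5 with the lowest p in each direction, the 5 genes with most members, the 5 with the highest Rpb2 peak inside, those next to the limits of distance and width, and those within 1 Mb of *Cx3cr1*. Other genes and Rpb2 peaks named were chosen after their values were seen. Alternatives were other scalings, DESeq2 1.42.0, other filters, the newer quasi-likelihood method, the peaks of both lists, the block and each pool left out in turn. Totals ran from 10395804 to 44332626 reads per library. The fit was tested on simulated counts. The motif search was tested on motifs planted in a constant sequence, for all motifs but MEF2, CTCF and NF-kB.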

Additional observations from a re-analysis of the deposited data

Results flagged for a closer look

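The median log2 ratio of KO over WT at the 6679 members was 0.179 between the female pools and -0.068 between the male pools. The pools of each sex moved in opposite directions at the median, and this difference was not tested, since each sex has 1 pool per genotype. Intergenic peaks had medians of 0.234 and -0.096 in the same order, and promoter peaks 0.009 and 0.091. The WT female library, which had 15.9% of its reads in peaks, is part of the female ratio. Groups of 2 pools are too small to look for outlying samples.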

How the results depend on the processing

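The count of 0 members called for H3K27ac also came out under 11 of the 14 alternatives to the edgeR fit, the exceptions being DESeq2 with 16 and the fits without a WT pool. At an unadjusted p under 0.05, scaling by total reads of the library gave 2 members higher and 0 lower in KO, with a median log2 fold change of 0.66. Loess offsets gave 187 lower and a median of -0.065, DESeq2 285 lower, and a filter of at least 10 reads in every sample 101 higher and 175 lower. Only the peaks of both lists gave 102 higher. Leaving out 1 pool at a time gave 0 to 905 calls, 14 to 1392 members higher, 28 to 572 lower and medians of -0.075 to 0.19. The calls came without the WT female pool (84, beside 506 of all 55798 peaks) or the WT male pool (905, beside 8138). Under library totals, the difference of median log2 levels reversed to 0.65, and leaving out 1 pool gave -0.12 to -0.0011.

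For Rpb2 peaks inside members, scaling by total reads in peaks moved the median to 0.11 (log2). Total reads of the library gave 400 higher, 55 lower and a median of 0.38. Loess offsets gave 1 call and 102 higher, DESeq2 128 calls and 268 lower, at least 10 reads in every sample 4 calls and 129 higher, only the peaks of both lists 1 call, 56 higher and 54 lower, and the newer quasi-likelihood method 36 calls. Leaving out 1 pool gave 0 to 287 calls, 57 to 483 higher and 128 to 263 lower, and the range of calls again turned on the WT pools (287 without the library labelled WT female, 234 without the WT male). The causes of these shifts were not tested, except that the smaller counts of the last filters also rest on fewer peaks.

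Samples with the same replicate number share only their sex label, which is in doubt for the Rpb2 library labelled WT female. Their deviations from the group means correlated at 0.01 over members and -0.02 over Rpb2 peaks inside members, so they were not treated as pairs. With labelled sex as a replicate block, 0 members and 0 Rpb2 peaks inside members were called. The median log2 fold change for Rpb2 was then 0.086.

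The share of members with an Rpb2 peak was 14.7% with Rpb2 peaks of both lists only, and 28.3% without members that hold a transcript start, an alternative chosen after seeing the data, as was leaving out each pool for the levels. The PU.1 share was 5.45% in 200-base windows, 17.3% in 1000-base windows and 14.1% at Rpb2 peaks, and it was 5.27 and 3.13 times the share in flanks for the first and the second. The levels against promoter and intergenic peaks kept their sign under the alternatives run. With 2 pools per genotype, the median SE of a log2 fold change was 0.40, which limits what a single member can show.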

Other observations

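Repeats other than LTRs were annotated at some member midpoints, SINEs at 604 members (9.04%) and LINEs at 263 (3.94%), while 5529 members (82.8%) had no repeat named there. The libraries ordered the members alike, with Spearman correlations of their CPM from 0.86 between the WT pools to 0.96 between the KO pools. Members with 0 reads in at least 1 library numbered 143.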
